A study of Mus musculus with 23 samples.

Results

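The comparison described here is the response of cultured mouse astrocytes to 6 h of T3 (triiodothyronine, the active thyroid hormone) while protein synthesis was blocked with CHX, read here as cycloheximide. Its 8 libraries, of 23 in all, were taken by their titles: 4 of cells given CHX and T3 for 6 h and 4 of cells given CHX alone. Per the labels, both groups were primary astrocytes of the neocortex of mice at postnatal day 3, of a hybrid background of 129/OLa, 129/Sv, BALB/c and C57BL/6. Cultures of 7 days, with an astrocyte share given as above 95%, then spent 24 h in 0.1% serum deprived of thyroid hormone. CHX was added at 8 µg/ml 30 min before T3, and T3 at 10 nM, so that CHX was in the cells of both groups. The 4 libraries of T3 for 6 h and the 4 of its untreated control had no CHX and shared no library with the comparison. The rest were 4 libraries of a 24 h control and 3 of T3 at 10 nM for 24 h, also without CHX. They entered the shared fit and a side comparison. The question a CHX arm addresses is which changes of RNA T3 can make without newly made protein.

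T3 acts through nuclear receptors, which sit on DNA with corepressors when the hormone is absent and with coactivators when it is bound, so that genes next to a receptor can change without any new protein. Genes that need a protein made in response to T3 are in principle blocked by CHX. CHX itself is known to raise short-lived RNAs, immediate early and NF-kappaB targets among them, and to lower others, so the CHX controls are not a resting state. Receptors often bind pairs of the half-site AGGTCA.

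The 8 libraries held 15068204 to 19647143 gene counts. The library of CHX replicate 4 stood apart from the other 3 CHX libraries: the chi-square per degree of freedom over genes was 7.05 to 7.15 in its pairs and 1.95 to 3.00 in the other pairs of that group. Replicate 3 of the CHX + T3 group stood apart in the same way, with 8.25 to 10.6 in its pairs against 1.73 to 2.97. A lane token in the file names put CHX replicates 1 to 3 on lane 5 and CHX replicate 4 with the 4 CHX + T3 libraries on lane 6, so lane and T3 can hardly be told apart here. The same token put the 24 h libraries on lane 6, except replicate 3 of 24 h T3 on lane 7. No label says that replicates came from separate cultures, so p-values speak only of the variation among these libraries, part or all of which could be technical. The cells carried the RNA their label calls for: Gfap, the astrocyte filament gene, was at 2321 to 3915 CPM (counts relative to the TMM-scaled total of the library), Slc1a3, a glutamate transporter gene, at 1670 to 1779 CPM and Aqp4, the water channel gene, at 727 to 941 CPM. The late marker genes Gjb6 (0.0992 to 0.755 CPM) and S100b (2.05 to 4.80 CPM) were low.

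Promoters of leading genes are shown first because the genes move together with T3, and the half-site is the letter pattern of this receptor family. Each is a RefSeq window of 300 bases at a gene start, build GRCm38.p6, on the plus strand, 5′ to 3′, and capitals mark AGGTCA or its reverse complement. Klf9 (chr19:23140976-23141275) and Nrarp (chr2:25180508-25180807) are the transcription factor and Notch regulator described below, and Stat5a has the windows chr11:100859406-100859705 and chr11:100860234-100860533.
Klf9: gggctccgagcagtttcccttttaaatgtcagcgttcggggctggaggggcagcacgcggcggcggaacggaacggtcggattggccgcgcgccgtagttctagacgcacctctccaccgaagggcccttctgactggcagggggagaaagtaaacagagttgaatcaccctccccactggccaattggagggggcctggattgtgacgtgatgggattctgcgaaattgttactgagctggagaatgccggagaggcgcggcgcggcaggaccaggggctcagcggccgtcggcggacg
Nrarp: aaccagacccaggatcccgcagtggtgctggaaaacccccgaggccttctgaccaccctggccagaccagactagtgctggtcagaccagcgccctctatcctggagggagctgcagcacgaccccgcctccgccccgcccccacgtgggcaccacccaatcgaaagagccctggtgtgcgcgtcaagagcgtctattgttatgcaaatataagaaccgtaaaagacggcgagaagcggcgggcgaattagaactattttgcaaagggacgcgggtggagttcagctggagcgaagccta
Stat5a, first window: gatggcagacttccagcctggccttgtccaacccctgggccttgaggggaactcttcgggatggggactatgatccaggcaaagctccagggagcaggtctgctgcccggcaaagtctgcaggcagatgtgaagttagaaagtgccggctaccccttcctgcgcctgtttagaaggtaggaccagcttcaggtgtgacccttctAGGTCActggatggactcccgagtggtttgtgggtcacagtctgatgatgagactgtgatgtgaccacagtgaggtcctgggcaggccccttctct
Stat5a, second window: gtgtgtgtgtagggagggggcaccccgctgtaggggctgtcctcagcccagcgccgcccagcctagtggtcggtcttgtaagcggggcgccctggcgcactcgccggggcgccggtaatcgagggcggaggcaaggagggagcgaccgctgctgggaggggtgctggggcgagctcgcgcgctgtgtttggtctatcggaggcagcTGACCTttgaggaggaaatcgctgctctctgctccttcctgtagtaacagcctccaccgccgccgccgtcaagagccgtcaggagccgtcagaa
Klf9 and Nrarp have no AGGTCA in these windows, and each Stat5a window has 1. Of the 12 genes with the largest increases named below, 10 matched the table, with 11 windows, and Stat5a was the 1 with the half-site. On either strand AGGTCA was in 12.3% of the 14693 windows of all genes tested, in 8.25% of the 194 windows of genes that rose and in 18.2% of the 22 windows of genes that fell. A direct repeat of AGGTCA with any 4 bases between its copies was in 0 windows of genes tested. A match is a pattern of letters only, and its absence says only that the letters are not in this window.

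Hr rose most. It encodes Hairless, a corepressor that binds thyroid hormone receptors (ENSMUSG00000022096, chr14:70552212-70573548 in GRCm38). Its level was 15.6, 14.9, 15.0 and 17.4 CPM in the CHX libraries and 110, 108, 120 and 115 CPM with T3. The groups lay far apart, with means of 15.7 ± 1.16 and 113 ± 5.39 CPM (SD, n = 4 each). The change was 7.20-fold, or 2.85 ± 0.07 log2 (SE, edgeR quasi-likelihood test, Benjamini-Hochberg adjusted p = 8.71e-19). Klf9, a zinc finger transcription factor known as an early target of thyroid and glucocorticoid hormones (ENSMUSG00000033863, chr19:23141226-23168134), stood at 14.7, 14.1, 14.8 and 13.6 CPM with CHX. With T3 it stood at 60.5, 65.1, 65.6 and 57.9 CPM. No library overlapped, and the rise was 2.12 ± 0.09 log2 (adjusted p = 1.44e-14).

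The receptor genes moved less than Hr and Klf9. Thrb, which encodes the beta receptor and is itself a T3 target in several tissues, was at 16.1, 15.8, 16.8 and 16.5 CPM with CHX and at 23.5, 26.7, 26.2 and 18.9 CPM with T3. All 4 T3 libraries were above all 4 controls, replicate 4 least, and the change was 0.55 ± 0.12 log2 (adjusted p = 0.0174). The call was lost in 5 of the 8 fits that each left out 1 library (adjusted p 0.052 to 0.088), those without CHX replicates 1, 2 or 4 or CHX + T3 replicates 2 or 3. Thra, the alpha receptor gene, had −0.12 ± 0.05 log2 (adjusted p = 0.311), and its exons overlap those of Nr1d1 on the other strand, which a kit that marks no strand cannot separate. Of 17 receptors and coregulators 3 rose, Hr and Thrb among them, with a list median of 0.15 log2, and 1 rose without CHX replicate 4.

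Of the 10 deiodinases and thyroid hormone transporters tested, 0 were called by edgeR. Dio3, which encodes the enzyme that inactivates T3 (ENSMUSG00000075707), was barely detected: 12 counts in all over the 4 CHX libraries and 33 over the 4 with T3. The levels were 0.0496, 0, 0.169 and 0.432 CPM with CHX and 0.522, 0.234, 0.324 and 0.762 CPM with T3, so CHX replicate 4 overlapped the T3 group. The change was 1.50 ± 0.52 log2 (adjusted p = 0.203), and 2.60 log2 (adjusted p = 0.0251) without CHX replicate 4. Dio2, whose enzyme makes T3 from its precursor in astrocytes, had 0.20 ± 0.09 log2 (adjusted p = 0.358).

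Over all 16087 genes tested 208 (1.29%) were called at an adjusted p under 0.05, 187 (1.16%) higher and 21 (0.131%) lower with T3. At least 2-fold changes were called for 14 genes higher (0.087%) and 1 lower (0.00622%), so most changes were small: the median of the higher calls was 1.35-fold, or 0.43 log2. The median of all genes tested was −0.01 log2. In 205 of the 208 called genes the 4 and 4 libraries did not overlap, and over all genes tested 12.3% did not overlap. Without CHX replicate 4, 143 genes (0.891%) were called, 136 higher (0.847%) and 7 lower (0.0436%), and without CHX + T3 replicate 3 there were 138 (129 and 9). With lane as a covariate 660 were called, 326 higher and 334 lower, a fit in which CHX replicate 4 is the one control on lane 6. All 187 and all 21 kept their sign in that fit, and 127 and 16 were still called. Where the groups do not overlap, a comparison that rests on fewer CHX libraries could hardly change the sign. The kept signs therefore add no support. Among the named genes that fit ended the calls of Mylk2 (adjusted p = 0.075), Thrb (0.164), Chst8 (0.261), Rpe65 (0.45), Gbp3 (0.951), Hk2 (0.156), Pfkfb4 (0.075), Klf2 (0.0521), Nlrp3 (0.0546), Il1r1 (0.0582), Tcerg1l (0.0674) and Gm10327 (0.435). It gave a call to 14 named genes that had none in the main fit.

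**Figure D1:**
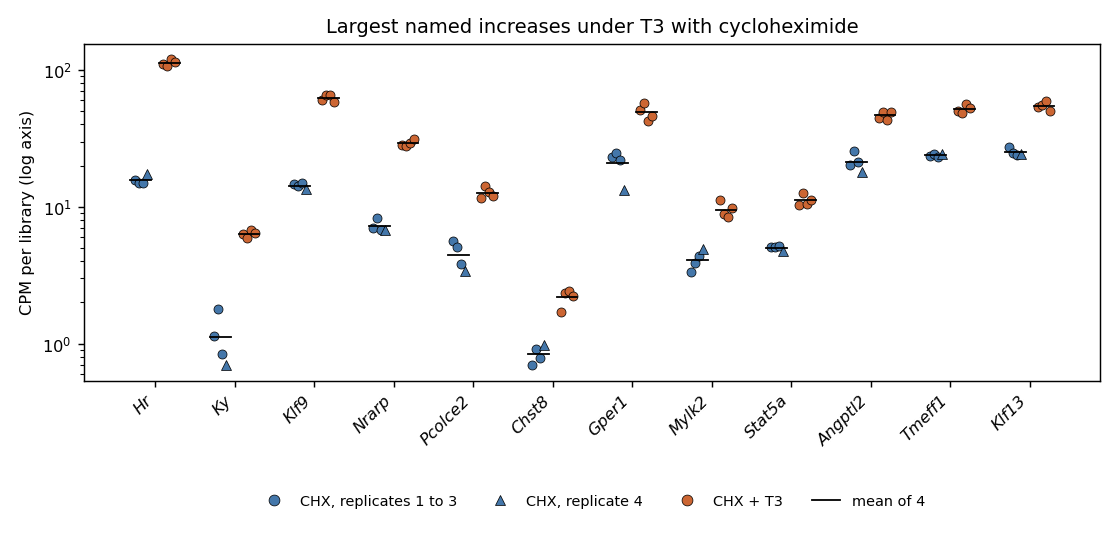
CPM per library on a log axis for the 12 protein-coding genes with the largest called increases and groups that do not overlap, CHX in blue (replicate 4 as a triangle) and CHX + T3 in orange, with the mean of 4 as a bar. Each orange group lies above its blue group, from Hr (15.7 to 113 CPM) to Klf13 (25.1 to 54.7 CPM).

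After Hr the largest rise was that of Ky, a gene known from skeletal muscle (ENSMUSG00000035606, chr9:102505750-102546239). Ky was at 1.14, 1.78, 0.844 and 0.701 CPM with CHX and at 6.33, 5.91, 6.76 and 6.45 CPM with T3, a change of 2.50 ± 0.20 log2 (adjusted p = 6.98e-09). Another muscle gene, the myosin light chain kinase gene Mylk2, was at 3.32 to 4.91 CPM with CHX and at 8.38 to 11.2 CPM with T3 (1.22 ± 0.19 log2, adjusted p = 3.39e-04). Pcolce2, an enhancer of procollagen processing, rose from 4.47 ± 1.03 to 12.7 ± 1.19 CPM (SD, n = 4 each), by 1.50 ± 0.14 log2. Gper1, a membrane receptor for oestrogen, was at 23.1, 24.6, 22 and 13.3 CPM with CHX and at 51.1, 56.9, 42.5 and 45.8 CPM with T3 (1.24 ± 0.13 log2). CHX replicate 4 was the low one, and the change without it was 1.08 log2. Angptl2, a secreted angiopoietin-like protein, rose by 1.13 ± 0.11 log2 and Tmeff1, a membrane protein with follistatin-like domains, by 1.13 ± 0.05 log2. Chst8, a sulfotransferase of the Golgi, had few reads (63 against 155 counts in all) and rose by 1.37 ± 0.32 log2 (adjusted p = 0.0244). Its call was lost in 7 of 8 fits with 1 library left out (adjusted p 0.055 to 0.0938), each but that without CHX + T3 replicate 1.

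Stat5a, a transcription factor of cytokine and growth hormone receptors (ENSMUSG00000004043, chr11:100859351-100885169), stood at 5.11, 5.06, 5.18 and 4.75 CPM with CHX and at 10.4, 12.6, 10.4 and 11.2 CPM with T3. The controls lay close together and all T3 libraries were above them, at 1.15 ± 0.10 log2 (adjusted p = 8.4e-08). Exons of Stat3 overlap Stat5a on the other strand. The same limit holds for at least Nrarp (Gm38287), Dbp (Sphk2), Dio2 (Gm26512), Bhlhe40 (0610040F04Rik), Amigo2 (Pced1b), Zfp36 (Gm44710), Icam1 (Gm47079) and Selp (Gm16548 and Gm16587). The related gene Stat5b rose by 0.32 ± 0.07 log2 (adjusted p = 0.00903, and 0.0556 without CHX replicate 4). Of 9 genes of STAT5, the prolactin receptor and SOCS these were the 2 called. The prolactin receptor gene Prlr was at 0.843 to 0.971 CPM with CHX and at 1.24 to 2.22 CPM with T3, without a call (0.85 ± 0.31 log2, adjusted p = 0.235).

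Among 14 Kruppel-like factors 3 rose and 1 fell, with a list median of 0.12 log2. Klf13 (ENSMUSG00000052040, chr7:63886351-63938915), a close relative of Klf9, was at 27.3, 24.8, 23.9 and 24.3 CPM with CHX and at 53.9, 55.3, 59.3 and 50.5 CPM with T3. The groups did not overlap, and the change was 1.12 ± 0.09 log2 (adjusted p = 5.03e-09). Klf10, an early gene of transforming growth factor beta, rose from 281 ± 11.3 to 370 ± 13.9 CPM (SD, n = 4 each), by 0.40 ± 0.05 log2. Klf2, a factor known from endothelium, fell: 13.3, 13, 16 and 14.5 CPM with CHX and 9.92, 10.4, 9.40 and 9.66 CPM with T3 (−0.53 ± 0.11 log2, adjusted p = 0.00937). Without CHX replicate 4 the counts were again 3 and 1, and the list median was 0.056 log2.

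In the Notch pathway 1 of 18 genes was called. Nrarp, a target of Notch that limits the pathway (ENSMUSG00000078202, chr2:25180758-25183339), was at 7.00, 8.24, 6.76 and 6.74 CPM with CHX and at 28.1, 28.0, 29.1 and 31.1 CPM with T3. The libraries within a group were close, and the change was 2.02 ± 0.07 log2 (adjusted p = 4e-16). The Notch effector gene Hes1 had 0.32 ± 0.09 log2 (adjusted p = 0.0854), Hey1 0.22 ± 0.06 log2 (adjusted p = 0.0568) and Hey2 −0.60 ± 0.16 log2 (adjusted p = 0.0757). None of these 3 passed the test.

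Of 29 thyroid hormone-responsive genes tested, 7 rose and 0 fell, and 6 rose without CHX replicate 4. The list's median was 0.11 log2. They were Hr, Klf9, Thrb and Stat5a, with Kcnj10, Dbp and Gbp3. Kcnj10, the main potassium channel gene of astrocytes, was at 538, 527, 556 and 533 CPM with CHX and at 716, 693, 834 and 716 CPM with T3 (0.46 ± 0.08 log2, adjusted p = 0.00136). Replicate 3 was the high T3 library, and the change without it was 0.40 log2. Dbp, a clock output factor, was at 117 to 155 CPM with CHX and at 176 to 204 CPM with T3 (0.43 ± 0.09 log2, adjusted p = 0.0122). The Dbp call was lost without CHX replicate 4 (adjusted p = 0.0774) or CHX + T3 replicate 2 (0.0616). Gbp3, a guanylate-binding protein gene, overlapped between the groups, since CHX replicate 4 at 68.3 CPM was far above the other CHX libraries at 44.7 to 51.2 CPM. With T3 it was at 65.6 to 76.2 CPM, and the change was 0.39 ± 0.10 log2 (adjusted p = 0.0482). The Gbp3 call was lost in the 7 fits that left out any other 1 of the 8 libraries (adjusted p 0.0709 to 0.208), while without CHX replicate 4 the change was 0.54 log2 (adjusted p = 6.63e-04).

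Smaller lists gave single members. Adamts5, an aggrecan-cleaving protease gene, rose from 72.5 ± 4.18 to 143 ± 9.55 CPM (SD, n = 4 each), by 0.98 ± 0.12 log2. Adamts15, of the same family, rose by 0.56 ± 0.14 log2 (adjusted p = 0.0357), and its call was lost in 6 of 8 fits (adjusted p 0.0546 to 0.178), all but those without CHX replicate 1 and CHX + T3 replicate 1. Of 13 ADAMTS genes these were the 2 called. In the retinoid list 1 of 15 was called, the isomerase gene Rpe65, from 79 counts in all with CHX to 149 with T3 (1.00 ± 0.25 log2, adjusted p = 0.0459). The Rpe65 call was lost in each of the 8 fits with 1 library left out (adjusted p 0.0581 to 0.211). Of 19 clock genes 17 had values above 0 (median 0.20 log2). The 2 called were Dbp and the repressor gene Bhlhe40 (0.37 ± 0.05 log2, adjusted p = 1.27e-04). Of 25 cholesterol genes 1 was called, Insig1, which holds sterol sensing in the endoplasmic reticulum (0.32 ± 0.07 log2, adjusted p = 0.0196). The Insig1 call was lost without CHX replicates 1, 2 or 4 or CHX + T3 replicates 3 or 4 (adjusted p 0.0577 to 0.118).

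Further genes are named here after their values were seen. Bcar3, an adaptor of integrin signalling, was at 114 to 119 CPM with CHX and at 203 to 216 CPM with T3 (0.84 ± 0.05 log2, adjusted p = 1.3e-11). Sox8, a glial transcription factor, was at 124 to 135 and at 195 to 205 CPM (0.61 ± 0.05 log2). The glycolytic regulator gene Pfkfb3 was at 321 to 333 and at 528 to 579 CPM (0.75 ± 0.06 log2), its relative Pfkfb4 rose by 0.69 ± 0.13 log2 and the hexokinase gene Hk2 by 0.53 ± 0.08 log2. Bmf, which promotes apoptosis, rose by 1.04 ± 0.10 log2, Gli2, a factor of Hedgehog signalling, by 0.59 ± 0.10 log2, and Nr3c1, the glucocorticoid receptor gene, by 0.35 ± 0.07 log2. Ppargc1a, a coactivator of mitochondrial genes, rose by 0.44 ± 0.11 log2 (adjusted p = 0.0361). The calls of Bcar3, Sox8, Pfkfb3, Pfkfb4, Hk2, Bmf, Gli2 and Nr3c1 held with any 1 library left out. That of Ppargc1a was lost in 6 of 8 fits (adjusted p 0.0584 to 0.188), all but those without CHX replicate 3 and CHX + T3 replicate 4.

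**Figure D2:**
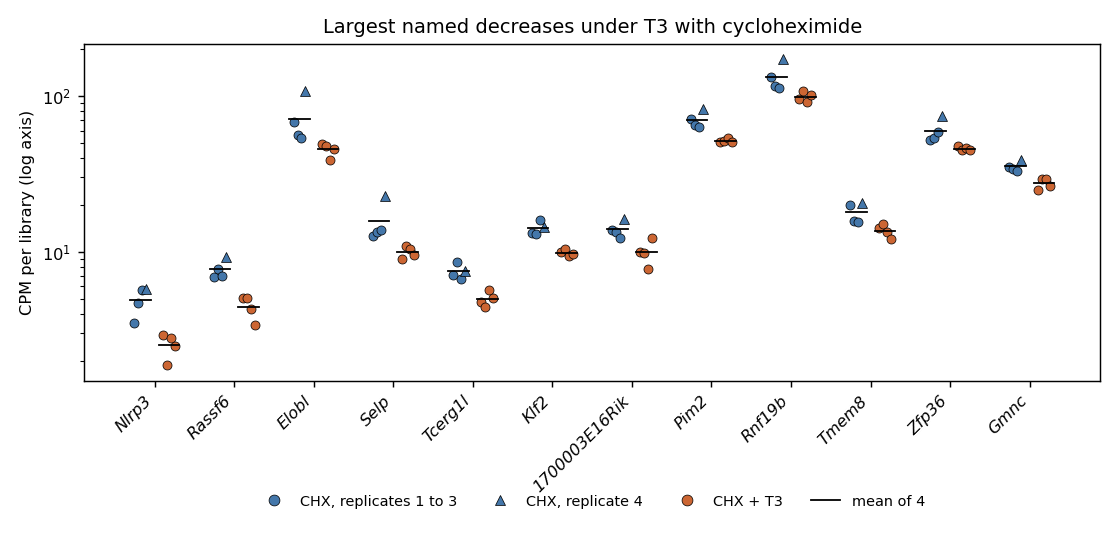
CPM per library on a log axis for the 12 protein-coding genes with the largest named decreases, CHX in blue (replicate 4 as a triangle) and CHX + T3 in orange, with the mean of 4 as a bar. The triangle is the highest blue point of Selp (22.7 CPM), Elobl (107 CPM) and Rnf19b (172 CPM), but not of Klf2 (14.5 CPM) or Tcerg1l (7.55 CPM).

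The 21 genes that fell included few large changes. Rassf6, a gene of the Ras association domain family (ENSMUSG00000029370, chr5:90603076-90640657), was at 6.90, 7.75, 6.98 and 9.33 CPM with CHX and at 5.09, 5.04, 4.27 and 3.40 CPM with T3 (−0.80 ± 0.15 log2, adjusted p = 0.00299). Pim2, a survival kinase gene, was at 71.4, 65.4, 63.5 and 82.1 CPM with CHX and at 50.7, 51.1, 53.7 and 51.0 CPM with T3 (−0.45 ± 0.08 log2, adjusted p = 8.83e-04). Tcerg1l fell by 0.58 ± 0.11 log2 (adjusted p = 0.0049), and Fzd1, a Wnt receptor gene named after its values were seen, by 0.33 ± 0.06 log2 (adjusted p = 0.0036). In these 4 genes and Klf2 the groups did not overlap and the call held with any 1 library left out. The rule for the largest decreases, which covers all of them but Fzd1, required no overlap, so that adds no support.

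For most of the other lowered genes CHX replicate 4 was the highest control. It was above the other 3 CHX libraries in 17 of the 21 lowered genes (81.0%), against 31.5% of all genes tested. It was below them in 103 of the 187 raised genes (55.1%), against 30.1% of all genes tested. These genes were called with CHX replicate 4 among the controls, so its level itself favoured the call. The shares over all genes are therefore no fair baseline. Without CHX replicate 4, 6 of the 21 lowered genes and 127 of the 187 raised genes were still called with the same sign. The median of the 21 went from −0.44 to −0.37 log2. Selp, the adhesion molecule P-selectin, was at 12.7, 13.4, 13.9 and 22.7 CPM with CHX and at 8.94, 11, 10.4 and 9.60 CPM with T3. Its value went from −0.65 ± 0.16 (adjusted p = 0.0349) to −0.41 log2 (adjusted p = 0.23) without CHX replicate 4, a change of over 1.5 times. Elobl, related to elongin B, went from −0.66 ± 0.17 (adjusted p = 0.0459) to −0.39 log2 (adjusted p = 0.31), and Rnf19b, an E3 ligase gene, from −0.43 ± 0.10 (adjusted p = 0.0247) to −0.28 log2 (adjusted p = 0.146). The inflammasome sensor gene Nlrp3 had −0.96 ± 0.24 log2 (adjusted p = 0.0458) and −0.87 (adjusted p = 0.178) without it. The part of that library's state in these decreases was not tested.

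The calls of the other lowered genes were also sensitive to single libraries. With 1 of the 8 libraries left out at a time, the call was lost in 7 fits for Nlrp3, Gmnc (a regulator of multiciliated cells, −0.36 ± 0.09 log2) and Adgb (−0.98 ± 0.25 log2), and in 6 for Elobl, 1700003E16Rik (−0.49 ± 0.12 log2) and Nfkbie. It was lost in 5 for Selp, Rnf19b, Il1r1 (the interleukin 1 receptor gene, −0.44 ± 0.10 log2) and Traf1 (−0.30 ± 0.07 log2), in 4 for Tmem8 (−0.40 ± 0.09 log2) and Zfp36, and in 3 for Ggta1 (−0.35 ± 0.08 log2) and the pseudogene Gm10327 (−1.22 ± 0.26 log2). It was lost in 1 for Tprn (−0.32 ± 0.07 log2) and Cited2 (−0.25 ± 0.05 log2), that without CHX replicate 4. CHX replicate 4 was among the libraries that ended the call for each of these but Gm10327, and CHX + T3 replicate 4 for Nlrp3, Gmnc, Adgb, Elobl, Nfkbie, Selp, Rnf19b, Il1r1, Traf1, Tmem8, Zfp36, Ggta1 and Gm10327. CHX + T3 replicate 3 also ended it for Nlrp3, Gmnc, Adgb, Elobl, 1700003E16Rik, Nfkbie, Selp, Rnf19b, Il1r1, Traf1, Tmem8 and Zfp36. The other losses were without CHX replicates 1 to 3 or CHX + T3 replicates 1 or 2, and over all these fits the lost calls had adjusted p of 0.0534 to 0.31. Adgb, Il1r1, Traf1, Tprn, Cited2 and Gm10327 were named after their values were seen.

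Few early response genes were called for T3, yet of all genes tested only 0.131% were called lower. Of 31 immediate early genes 2 fell, Klf2 and Zfp36, whose protein destabilises RNAs of cytokines, with a list median of −0.07 log2 (0.0025 without CHX replicate 4). Zfp36 was at 51.9, 53.7, 59.1 and 74.7 CPM with CHX and at 47.7, 44.7, 46.2 and 45 CPM with T3 (−0.38 ± 0.09 log2, adjusted p = 0.0234, and 0.136 without CHX replicate 4). Of 21 genes of NF-kappaB feedback and chemokines 1 fell, Nfkbie, an inhibitor of the pathway (−0.32 ± 0.08 log2, adjusted p = 0.0293, and 0.188 without CHX replicate 4), and 2 had values above 0 (median −0.18 log2). The chemokine gene Ccl2 had −0.32 ± 0.10 log2 (adjusted p = 0.138), the adhesion gene Icam1 −0.34 ± 0.11 log2 (adjusted p = 0.158) and the stress gene Gadd45b −0.29 ± 0.08 log2 (adjusted p = 0.0682). CHX replicate 4 held the highest level of each of these 3, at 243, 594 and 781 CPM against at most 202, 425 and 640 CPM in the other CHX libraries. The summed CPM of the NF-kappaB list was 4566 in that library, 3665 to 4093 in the other CHX libraries and 3527 to 3628 with T3. Beside the T3 effect, CHX alone moved these genes far more against the untreated control: Gadd45b by 4.17 ± 0.09 log2, Icam1 by 3.79 ± 0.13 log2 and Nfkbie by 3.46 ± 0.09 log2, a comparison that uses the same CHX libraries.

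**Figure D3:**
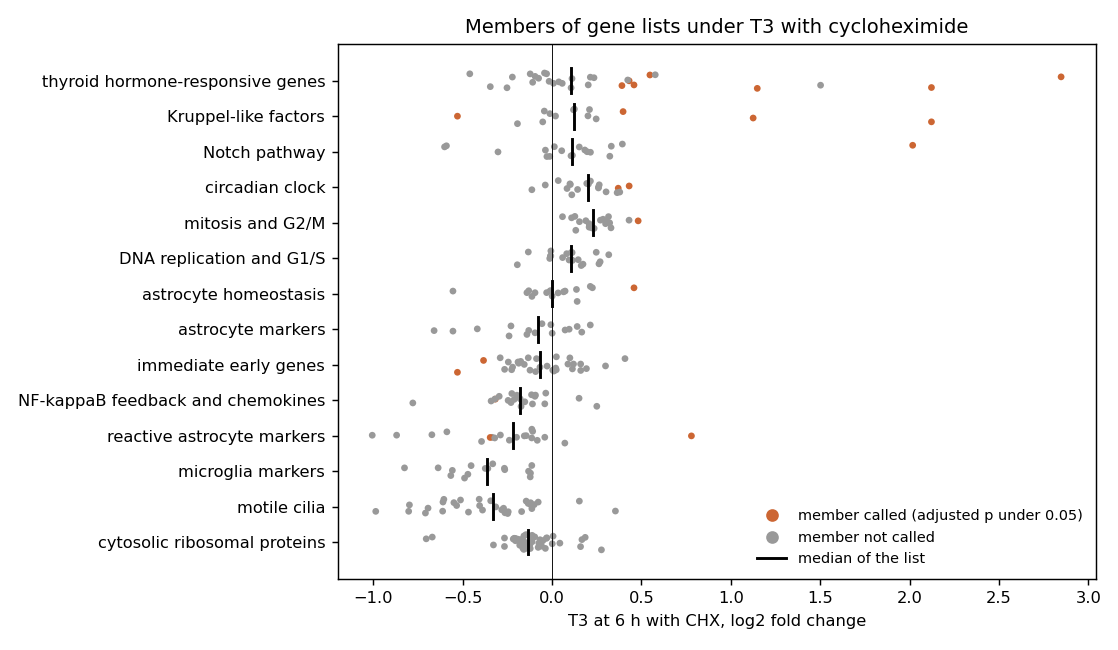
Log2 fold change of T3 with CHX for each tested member of 14 gene lists, called members in orange, others in grey, with the list median as a bar. Hr, Klf9 and Stat5a lead the thyroid hormone list, Nrarp stands alone in the Notch list, and all 20 mitosis genes lie above 0 while 30 of 32 motile cilia genes lie below.

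Most cell cycle genes had positive values and did not pass the test. All 20 mitosis genes had values above 0 (median 0.23 log2, and 0.14 without CHX replicate 4). The 1 called was the kinetochore gene Cenpf (0.48 ± 0.10 log2, adjusted p = 0.0132). The Cenpf call was lost without CHX replicate 4 (adjusted p = 0.0857) or CHX + T3 replicate 3 (0.092). The proliferation marker gene Mki67 was at 122, 137, 133 and 91.1 CPM with CHX and at 156, 165, 187 and 144 CPM with T3 (0.43 ± 0.12 log2, adjusted p = 0.0795). The groups of Mki67 did not overlap, CHX replicate 4 was lowest, and the value without it was 0.32 log2. The summed CPM of the mitosis list was 1062 in CHX replicate 4, 1368 to 1461 in the other CHX libraries and 1498 to 1668 with T3. Without CHX the same list had a median of −0.28 log2 for T3, with 8 members called lower. Of 20 replication genes 0 were called by edgeR with CHX, at a median of 0.11 log2 (0.045 without CHX replicate 4).

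Most motile cilia genes had negative values. Of 32 tested 2 had values above 0 (median −0.33 log2, and −0.12 without CHX replicate 4), and edgeR called 0. The summed CPM was 1216 in CHX replicate 4, 805.6 to 911 in the other CHX libraries and 769.6 to 834 with T3. Spag6l, a gene of the ciliary axoneme, was at 10.1, 8.35, 8.11 and 18.8 CPM with CHX and at 6.20, 6.79, 6.97 and 7.98 CPM with T3. The high CHX value was again replicate 4, and the value went from −0.69 ± 0.24 (adjusted p = 0.196) to −0.34 log2 (adjusted p = 0.685) without it. Foxj1, the master regulator of motile cilia, was at 436 to 607 CPM with CHX and at 381 to 453 CPM with T3 (−0.26 ± 0.10 log2, adjusted p = 0.237). Without CHX the list had a median of 0.63 log2 for T3, with 11 members called higher.

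**Figure D4:**
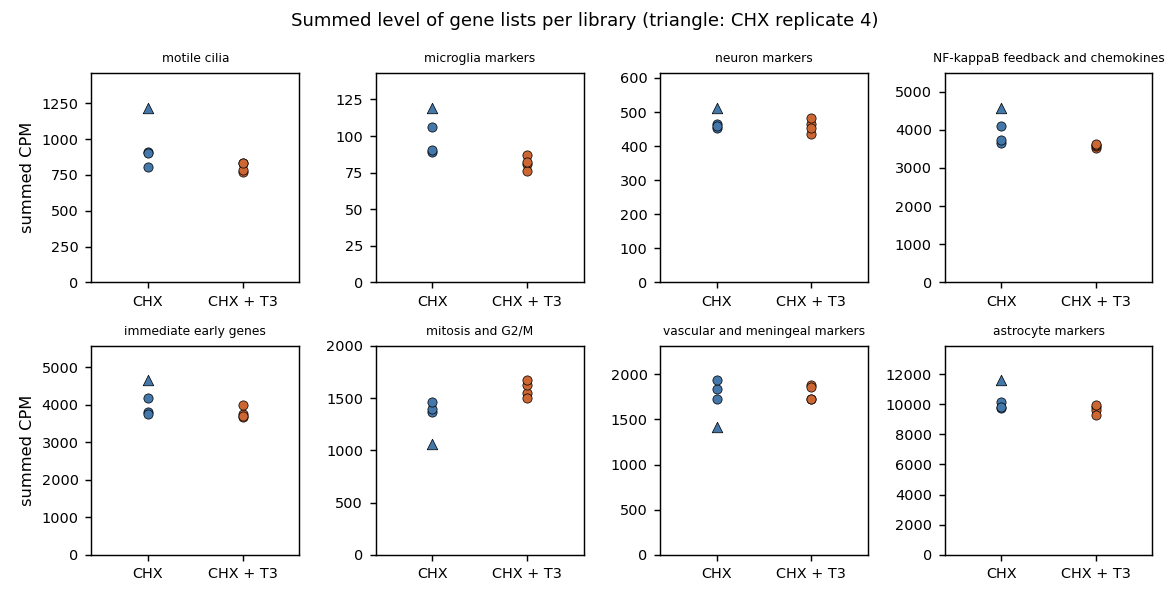
Summed CPM of the tested members of 8 gene lists in each library, CHX in blue (replicate 4 as a triangle) and CHX + T3 in orange, on axes that start at 0. The triangle is the highest point for motile cilia (1216), microglia (119) and NF-kappaB genes (4566) and the lowest for mitosis (1062) and vascular markers (1422).

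Other cell types were followed by their marker genes. Of all genes tested 1.29% were called, so 0 calls in lists this short is near that share. None of 16 microglia markers was called and 0 had a positive value, with a median of −0.37 log2 (−0.26 without CHX replicate 4). Their summed CPM was 119 in CHX replicate 4, 89.3 to 106 in the other CHX libraries and 76.2 to 87.0 with T3. In bulk RNA fewer cells of a type and less RNA per cell cannot be told apart. Tmem119, a defining microglia gene, was at 0.261 to 0.754 CPM and P2ry12 at 0.351 to 0.701 CPM over the 8 libraries. Of 10 neuron markers 0 were called, and the summed CPM ranged from 452 to 512 with CHX and from 436 to 482 with T3, most of it Map2 (297 to 349 CPM) and Stmn2 (93.6 to 114 CPM). Of 9 oligodendrocyte lineage, 12 vascular and meningeal and 6 ependymal markers 0 were called. Of 16 astrocyte markers 0 were called, and their summed CPM was 11579 in CHX replicate 4, 9775 to 10150 in the other CHX libraries and 9293 to 9936 with T3. Of 20 reactive astrocyte markers the adhesion gene Amigo2 rose (0.78 ± 0.12 log2, adjusted p = 3.98e-04), the sugar transferase gene Ggta1 fell (adjusted p = 0.0193, and 0.122 without CHX replicate 4) and 2 had positive values. The part of these cells in the T3 values was not tested.

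Genes of the energy and protein machinery had 0 calls, where 1.29% of all genes tested were called. At that share few calls would be due in these lists, so their absence is no result about them. Of 33 nuclear genes of the respiratory chain, 7 mitochondrial ones, 47 cytosolic ribosomal proteins and 20 ATF4 targets 0 passed edgeR's test, with medians of −0.08, 0.13, −0.14 and −0.04 log2. The summed CPM of the ribosomal list was 3113 in CHX + T3 replicate 3 and 3819 to 4074 in the other T3 libraries, against 4015 to 4207 with CHX. Of 17 astrocyte homeostasis genes 1 was called, Kcnj10, and without CHX replicate 4 the sodium pump gene Atp1b2 was called too (0.21 ± 0.07 log2, adjusted p = 0.135, against 0.29 log2, adjusted p = 0.0201). Of 17 interferon genes the 1 called was Gbp3.

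The T3 effect with CHX was set beside that without CHX, from libraries the comparisons do not share. Without CHX 606 genes (3.77%) were called, 420 higher (2.61%) and 186 lower (1.16%), a split that became 508 and 492 after removal of a trend with length and GC. Of the 187 genes that rose with CHX 124 (66.3%) also rose without it, which is 29.5% of the 420, and 168 had a positive value. Of the 21 that fell with CHX 0 were among the 186 that fell without it, and 11 had a negative value. After 24 h of T3 without CHX 114 of the 187 (61.0%) were also among the 709 genes called higher (4.41% of genes tested), of which they are 16.1%. The 186 genes that fell without CHX had a median of −0.34 log2 there and of 0.01 log2 with CHX. The 46 genes called at least 2-fold higher without CHX (0.286%) had a median of 1.33 log2 there, which chose them, and of 0.43 log2 with CHX, where 15 (32.6%) were called higher. The 5 of them with the largest rise that were not called with CHX were ENSMUSG00000097758, Dio3, Gm12500, 4921530L21Rik and Prlr. Dio3 had 3.60 ± 0.43 log2 without CHX and Prlr 1.76 ± 0.32 log2, and Gm12500 (−0.08 ± 0.37 log2 with CHX) and 4921530L21Rik (0.36 ± 0.34 log2 with CHX) had few reads, at 0.234 to 0.703 and 0.377 to 1.11 CPM over the 8 libraries with CHX.

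**Figure D5:**
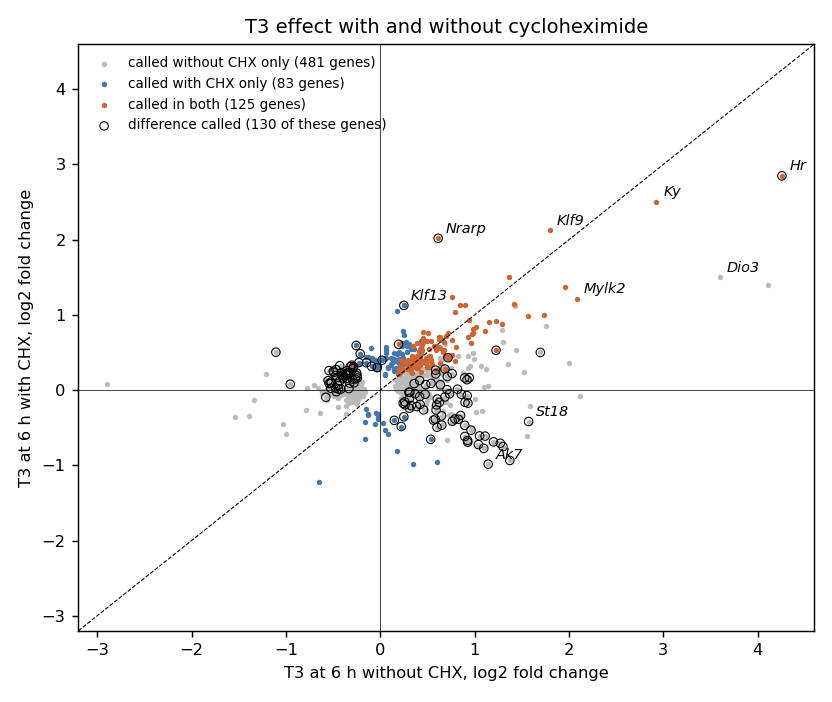
Log2 fold change of T3 at 6 h without CHX (x axis) against that with CHX (y axis) for genes called in either: 481 called without CHX only (grey), 83 with CHX only (blue), 125 in both (orange), with circles on the 130 whose difference was called and a dashed line of equal effects. Hr lies below the line (4.26 against 2.85 log2), and Nrarp (0.61 against 2.02) and Klf13 (0.25 against 1.12) above it.

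The difference of the T3 effects was itself tested, and 196 genes (1.22%) were called, 94 with a higher value under CHX (0.584%) and 102 with a lower one (0.634%), or 363 and 236 after removal of that trend. The count was 47 (0.293%, 26 and 21) without CHX replicate 4 and ran from 30 to 334 with 1 of the 16 libraries left out, so the count rested on single libraries. For 7 genes described here the call held with any 1 library left out, which does not separate lane from T3. The file names put the 6 h libraries without CHX on lane 5, so the lane split lies only in the CHX libraries. With lane as a covariate 966 genes were called for the difference. Differences here are on the log2 scale. By that scale Nrarp rose more under CHX, by a difference of 1.40 ± 0.09 log2 (adjusted p = 9.7e-10). Without CHX Nrarp went from 68.2 ± 1.90 to 104 ± 4.38 CPM (SD, n = 4 each), and CHX alone had lowered it by 3.25 ± 0.07 log2. With CHX its means were 7.18 and 29.1 CPM, a smaller gain in CPM than without. Klf13 behaved alike, with a difference of 0.88 ± 0.12 log2 (adjusted p = 4.62e-04) and −3.06 ± 0.09 log2 for CHX alone. Its means went from 209 to 249 CPM without CHX, not called (0.25 ± 0.08 log2, adjusted p = 0.0755), and from 25.1 to 54.7 CPM with it. The values for CHX alone share libraries with the difference. Hr rose less under CHX, by a difference of −1.41 ± 0.11 log2 (adjusted p = 1.36e-08): without CHX it went from 10.8 ± 1.32 to 205 ± 14.7 CPM (SD, n = 4 each). Hk2 also rose less (−0.70 ± 0.12 log2, adjusted p = 0.00506), and Sox8 rose more (0.41 ± 0.06 log2, adjusted p = 0.00275). Hes1 had −0.43 ± 0.09 log2 without CHX and a difference of 0.75 ± 0.13 log2 (adjusted p = 0.00506), and the mitotic kinesin gene Kif23 had −0.32 ± 0.09 log2 without CHX and a difference of 0.63 ± 0.12 log2 (adjusted p = 0.0165).

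For other leading genes no difference passed the test, which does not show equal effects. The T3 effect with minus without CHX was 0.33 ± 0.12 log2 for Klf9 (adjusted p = 0.194), −0.42 ± 0.29 for Ky (0.611), −0.26 ± 0.15 for Stat5a (0.472), 0.14 ± 0.19 for Pcolce2 (0.855) and −0.06 ± 0.11 for Kcnj10 (0.897). It was 0.29 ± 0.07 log2 for Tmeff1 (adjusted p = 0.0505) and −0.58 ± 0.18 for Adamts5 (0.111). Among the largest positive differences by the rule for named genes were also those of D630039A03Rik (1.54 ± 0.37 log2), Nell1 (1.51 ± 0.37) and Rec8 (1.03 ± 0.25). The largest negative ones were those of Cfap299 (−2.31 ± 0.54 log2), Ak7 (−2.13 ± 0.48), Dmkn (−2.05 ± 0.52), St18 (−1.99 ± 0.43) and Wdr63 (−1.98 ± 0.47). All 8 lost their call without CHX replicate 4 (adjusted p 0.085 to 0.173) and in 9 to 13 of the 16 fits with 1 library left out. Cfap299, Ak7 and Wdr63 belong to motile cilia, and CHX replicate 4 held their highest level among the CHX libraries, 3.45, 6.58 and 9.50 CPM against at most 1.69, 2.88 and 4.42 CPM.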

How the data were processed

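RNA was sequenced in 23 libraries of cultured astrocytes, of which 8 form the comparison with CHX. The deposited files hold raw counts of reads per Ensembl gene. Each lists 38293 genes, and its 5 last lines, which belong to no gene, were kept out of library sizes and tests. Per the submitters' processing notes, the authors used TopHat with Bowtie, HTSeq and edgeR, on the build GRCm38, after bcl2fastq and FastQC. Versions, counting mode and annotation: not given in the sources used here. Per the labels' protocols, the kit marks no strand and single reads of 50 nt were made. In the 8 libraries those lines held 4.25 to 5.81% of reads as without a feature, 1.63 to 1.71% as ambiguous and 30.7 to 32.9% of alignments as not unique. The latter lower counts for genes that have near-identical copies.

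Symbols and coordinates came from GENCODE M21, which held 36429 of the identifiers. Libraries were grouped by their titles. With edgeR 4.0.16 (R 4.3.3), filterByExpr at its minimum count of 10 kept 16087 genes, and TMM scaled the libraries. The quasi-likelihood fit gave each group its own mean and used all 23 libraries (17 residual degrees of freedom). A gene was called where its Benjamini-Hochberg adjusted p, over all genes tested, was under 0.05. The standard error of a log2 fold change is its size over the square root of F. Levels are CPM on TMM-scaled sizes, computed from the deposited counts.

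Named genes are the 12 protein-coding genes per direction that changed most, if called, averaging 1 CPM or more and without overlap of the groups, the called thyroid hormone genes, up to 4 genes of each list, the 5 largest differences per direction, and 5 genes called only without CHX. From these a part was printed, 2 are not reported here, and a few genes were added after their values were seen, as said beside them. The members and lists were chosen with earlier results of these data known. The script was tested on simulated data. Alternatives were DESeq2 1.42.0, RLE factors, no filter, lane as a covariate, removal of a length and GC trend, only the libraries compared, a replicate block, and leaving libraries out. Whether the replicate numbers pair the CHX and CHX + T3 libraries is not known. Correlations of the libraries' deviations from their group means were 0.0183 to 0.0841 for the same number and −0.148 to 0.114 for other numbers.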

Additional observations from a re-analysis of the deposited data

Results flagged for a closer look

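In some genes 1 library of 4 lay far from the other 3, by Dixon's ratio of its gap to the whole range, which chance alone flags in about 1 of 20 groups. Many genes were looked at in both groups, so this many flags could arise by chance. An excess over that rate was not tested. CHX replicate 4 was the high library for Selp (22.7 CPM against 12.7 to 13.9), Hey2 (7.61 against 5.01 to 5.24), Gadd45b (781 against 626 to 640), Icam1 (594 against 413 to 425) and Traf1 (56.8 against 44.3 to 45.3). CHX + T3 replicate 3 was the high library for Kcnj10 (834 CPM against 693 to 716), Pim2 (53.7 against 50.7 to 51.1) and Rpe65 (2.59 against 1.89 to 1.98). For Nrarp the high library was CHX replicate 2, at 8.24 CPM against 6.74 to 7.00.

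The T3 effect differed with and without CHX by edgeR's quasi-likelihood test of the difference, given here as the log2 effect with CHX minus that without. Among genes of the thyroid hormone, Klf and Notch lists it was −1.41 for Hr, 1.40 for Nrarp, 0.876 for Klf13 and 0.754 for Hes1. For Sox8 it was 0.415 and for Hk2 −0.697. Among genes that fell with CHX it was −1.19 for Elobl, −0.707 for 1700003E16Rik, −0.605 for Gmnc and −0.551 for Tmem8. For the mitotic genes Cenpf and Kif23 it was 0.695 and 0.629, for Insig1 0.409, for the mitochondrial gene mt-Nd2 0.365 and for Atp1b2 −0.373. For genes of motile cilia it was −2.31 for Cfap299, −2.13 for Ak7, −1.98 for Wdr63 and −1.62 for Spag6l. For Dmkn it was −2.05 and for St18 −1.99, and for D630039A03Rik, Nell1 and Rec8 it was 1.54, 1.51 and 1.03. Of these 24 differences 7 passed in every fit with 1 of the 16 libraries left out, those of Hr, Nrarp, Klf13, Hes1, Kif23, Sox8 and Hk2.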

How the results depend on the processing

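The 208 genes called for T3 with CHX became 343 with DESeq2, 355 after removal of a trend with length and GC, 407 with only the 8 libraries fitted and 660 with lane as a covariate, where the share called higher went from 89.9 to 49.4%. With 1 library left out the count ran from 138 to 252. The 196 calls of the difference became 514 with DESeq2, 295 with no filter, 599 with the trend removed, 966 with lane and 497 with only the 16 libraries fitted, and ran from 30 to 334 with 1 left out. The 606 calls without CHX became 1000 with the trend removed, 1191 without CHX replicate 4 and 24 h T3 replicate 1, and at the lowest 349 without T3 replicate 4. All 187 higher and 21 lower calls kept their sign in every one of these fits. In 205 of the 208 the groups did not overlap, so leaving out a library could hardly change the sign. Of the genes named, Gm12500 (32 counts in all over the T3 libraries) changed sign with single libraries left out, from −0.3843 without CHX + T3 replicate 3 to 0.1725 without CHX replicate 1. The causes were not tested.

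A replicate block in the libraries compared gave 850 calls for T3 with CHX and 683 for the difference. Whether the replicate numbers pair the samples is not known. CHX replicate 1 deviated most like CHX + T3 replicate 2 and CHX replicate 4 most like CHX + T3 replicate 1. CHX replicates 2 and 3 deviated most like the CHX + T3 library of their own number.

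Dio3, Gm12500, 4921530L21Rik and ENSMUSG00000097758 had mean levels of at most 1 CPM in these libraries, so their values rest on few reads. Few reads also lie under the called decreases of Gm10327 (75 counts in all with CHX, 30 with CHX + T3) and Adgb (97 and 46).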
